A study of Mus musculus with 12 samples.

Results

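The genes described here are 10 of the TGF-beta superfamily system in the mouse uterus. They are the TGF-beta ligand genes Tgfb1, Tgfb2 and Tgfb3, the activin subunit genes Inhba and Inhbb, the bone morphogenetic protein genes Bmp2, Bmp4 and Bmp7, the growth differentiation factor gene Gdf10, and Ltbp1, which encodes a latent TGF-beta binding protein. They were taken by name, with no threshold on their values but with earlier results of these data known, and all 10 were among the 35896 genes to which the deposited transcripts could be assigned. The samples were 12 whole uteri of wild type female Swiss Webster mice, an outbred stock, aged 8 to 12 weeks. The labels gave 3 uteri to each of 4 stages of the estrous cycle, which runs in the order proestrus, estrus, metestrus and diestrus, and no group carried a treatment or a modified allele. Samples are named by stage and by the number in their title, and p-values rest on the spread between uteri of the same stage, with 3 uteri a stage. In fits that hold all 4 stages this spread was pooled over them, so the p-value of a contrast also draws on stages outside it.

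Ligands of this superfamily are made as precursors, cleaved by proprotein convertases and secreted as dimers. TGF-betas stay latent, bound to their propeptide and to a carrier such as the Ltbp1 protein, until integrins or proteases free them. A dimer joins type I and type II receptor kinases on the target cell, and these phosphorylate SMAD transcription factors, SMAD2 and SMAD3 for TGF-betas and activins and SMAD1 and SMAD5 for most BMPs. In the uterus the system is known for its part in stromal decidualization, gland formation and tissue repair.

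Transcripts were read from their 3' ends (3' TagSeq), and values are CPM, the counts of a gene relative to the scaled total of its library, after scaling by library size with TMM factors. The libraries held between 1652841 and 2200563 estimated counts, so that 3 counts, taken as the floor for a gene with no count, equalled 1.36 to 1.88 CPM. Intervals and floors cover counting error only. The 6 uterine identity genes checked (Esr1, Pgr, Hoxa10, Hoxa11, Hoxd10 and Wnt7a) all passed the filter on low counts, with a summed level between 451 and 1033 CPM in every sample. Of the 8 ovary genes checked, the granulosa receptor gene Fshr and the oocyte gene Zp3 had 0 counts in all 12 libraries. The other 6 had counts, most of them in Foxl2 and Star, and the list summed to between 25.9 and 76.5 CPM. In whole tissue, fewer cells of a type and less RNA per cell cannot be told apart.

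Of the 10 genes, 9 passed the filter and were tested, and 3 of these differed between stages: Inhbb, Bmp7 and Gdf10 (edgeR quasi-likelihood F test over the stages, Benjamini-Hochberg adjusted p under 0.05 over 12052 genes). That test called 23.2% of all genes. Inhbb, the activin beta B subunit, was highest in proestrus and lowest in diestrus. Gdf10 and Bmp7 ran the other way, with their highest levels in diestrus. Tgfb2, Tgfb3, Inhba, Bmp2, Bmp4 and Ltbp1 did not pass the test, and Tgfb1 had too few counts to be tested.

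**Figure D1:**
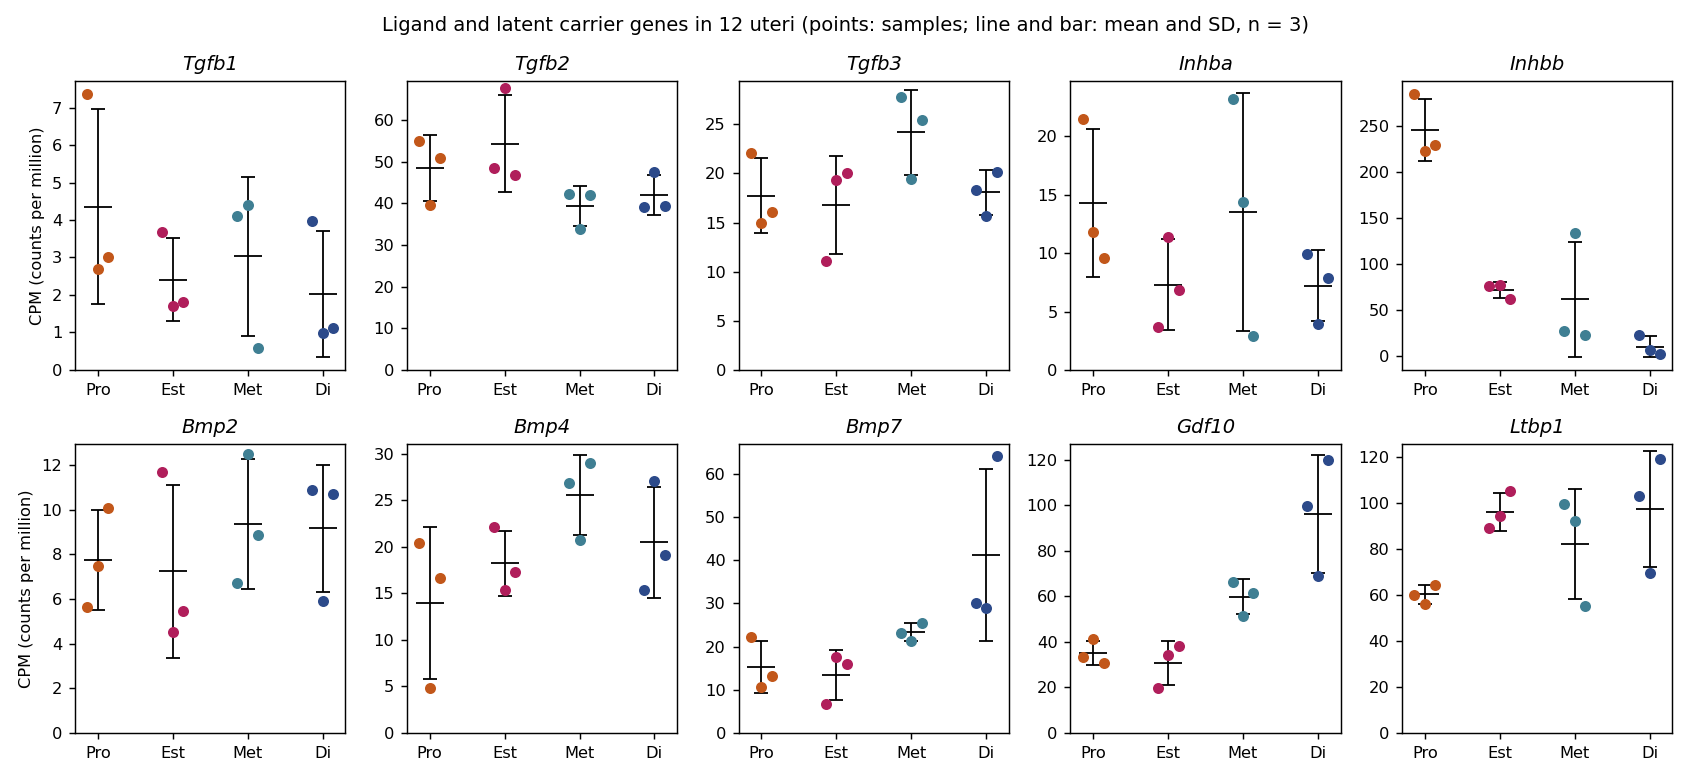
CPM of each of the 10 genes (linear axes) in the 12 uteri by stage (Pro, proestrus, Est, estrus, Met, metestrus, Di, diestrus), with points for samples, a line for the mean and a bar for the SD (n = 3). Inhbb lies between 223 and 285 CPM in proestrus and between 1.69 and 22.8 CPM in diestrus, and Gdf10 is above all other samples in the 3 diestrus uteri.

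Inhbb (ENSMUSG00000037035, chromosome 1, 119415465 to 119422248, GRCm38, minus strand) encodes the beta B subunit, which forms activin B as a dimer with itself and inhibin B with the alpha subunit. All 2139 of its counts were assigned to its only annotated transcript. It measured 285, 223 and 230 CPM in proestrus replicates 1, 2 and 3. It measured 75.5, 77.2 and 61.4 CPM in estrus replicates 3, 4 and 5. In metestrus it stood at 27.3, 134 and 23.1 CPM in replicates 5, 6 and 7, and in diestrus at 22.8, 5.89 and 1.69 CPM in replicates 3, 4 and 5. The proestrus uteri were all above every other sample and the diestrus uteri all below every other sample, while metestrus replicate 6 stood apart from its stage.

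The means of Inhbb were 246 ± 34.1 CPM in proestrus, 71.4 ± 8.70 in estrus, 61.5 ± 62.9 in metestrus and 10.1 ± 11.2 in diestrus, with SD over 3 uteri (stage F test of edgeR, adjusted p = 0.00176). Proestrus was 23.7-fold above diestrus (4.57 ± 0.68 on the log2 scale, SE, edgeR adjusted p = 0.00128), and higher in 3 of 3 samples. From estrus to diestrus Inhbb fell by 2.78 ± 0.69 on the log2 scale (adjusted p = 0.0105, lower in 3 of 3). Diestrus replicate 3 bore on both sizes: without it the diestrus mean was 3.79 CPM, and the log2 differences were 5.96 for proestrus over diestrus and -4.17 for diestrus over estrus, both still called. Diestrus replicates 4 and 5 held 12 and 3 counts of Inhbb, the latter at the floor of 1.69 CPM. Both sizes thus rested on few diestrus counts and are imprecise. From proestrus to estrus it fell by 1.79 ± 0.56 on the log2 scale (adjusted p = 0.0439, lower in 3 of 3). Both stages were narrow here, but the p-value of the fit to all samples also drew on the spread within metestrus (SD 62.9 CPM) and diestrus. This last call was lost with DESeq2 (adjusted p = 0.139), with counts rebuilt from TPM (0.0539) and without each single proestrus replicate 1, 2 or 3 (0.114, 0.0777 and 0.0923) or estrus replicate 3, 4 or 5 (0.105, 0.106 and 0.133). The call was kept in 11 of 19 alternatives. Among these were the edgeR fits to the 2 stages alone (adjusted p = 5.08e-06) and without metestrus replicate 6 (0.00459).

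Metestrus overlapped with estrus in its Inhbb levels and lay just above diestrus, and none of its contrasts passed with all samples. Against estrus the log2 fold change was -0.23 ± 0.58 (edgeR, adjusted p = 0.851). Against proestrus it was -2.02 ± 0.57 (adjusted p = 0.0650), although the 3 metestrus samples were below the 3 proestrus samples, and it was called with limma-voom (0.0125) and with no filter on low counts (0.000615). Diestrus against metestrus gave -2.55 ± 0.69 (adjusted p = 0.158), again with no overlap, and was called with no filter (0.00103). Without metestrus replicate 6 the metestrus mean was 25.2 CPM, the difference from proestrus became -3.28 and was called (adjusted p = 0.00198), and the differences from estrus (-1.47, adjusted p = 0.100) and of diestrus (-1.28, adjusted p = 0.266) were not.

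Marker sums of other compartments also differed between the stages. The 8 epithelial markers, all tested, summed to 1663 to 2235 CPM in proestrus, 1462 to 1834 in estrus, 663 to 1173 in metestrus and 668 to 819 in diestrus. The 8 ovary genes, of which 2 were tested and 2 were at 0, summed to 53.4 to 73.9 CPM in proestrus, 25.9 to 40.9 in estrus, 38.5 to 76.5 in metestrus and 40.7 to 46.6 in diestrus, most of it from Foxl2 and Star. The epithelial sum was, like Inhbb, higher in proestrus than in diestrus. Among its markers Cldn3 and Cldn4 ran the other way, and the others went with the sum. Cldn3 had 55.9 to 95.8 CPM in proestrus and 119 to 184 in diestrus, and Cldn4 1.01 to 2.83 and 4.5 to 6.43 CPM. Unlike Inhbb, the epithelial sum overlapped between proestrus (1671, 2235 and 1663 CPM) and estrus (1462, 1791 and 1834 CPM). The lowest ovary sums were in estrus, with some overlap with later stages. Metestrus replicate 6, the metestrus uterus with the most Inhbb, had the highest ovary sum at 76.5 CPM and the highest sum of the 7 stromal markers, 15104 CPM against 6873 and 13119 in the other metestrus uteri. Its smooth muscle sum of 7287 CPM was the highest of its stage, and its epithelial sum of 900 CPM lay inside the range of its stage. The part of these markers in the Inhbb result was not tested.

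Gdf10 (ENSMUSG00000021943, chromosome 14, 33923587 to 33937983, plus strand) encodes a ligand close to BMP3. It measured 33.4, 41.2 and 30.7 CPM in proestrus replicates 1, 2 and 3 and 19.7, 34.1 and 38.2 CPM in estrus replicates 3, 4 and 5. It measured 66.4, 51.4 and 61.5 CPM in metestrus replicates 5, 6 and 7 and 99.5, 68.7 and 120 CPM in diestrus replicates 3, 4 and 5. The 3 diestrus uteri were above all others, the 3 metestrus uteri came next, and proestrus and estrus overlapped. Gdf10 was thus the tested gene of the 9 with the smallest F test p (adjusted p = 0.000921 by edgeR). Diestrus was 3.10-fold above estrus (1.63 ± 0.24 on the log2 scale, SE, edgeR adjusted p = 0.000480), and higher in 3 of 3 samples. Proestrus minus diestrus came to -1.45 ± 0.24 on that scale (edgeR adjusted p = 0.00229), with all 3 proestrus samples lower.

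The rise of Gdf10 from estrus to metestrus was smaller, 0.95 ± 0.25 on the log2 scale (edgeR, adjusted p = 0.0344, higher in 3 of 3). It was not called with library totals in place of TMM factors (adjusted p = 0.0520), with counts rebuilt from TPM (0.0817), in the fit to these stages alone (0.0720), or without proestrus replicate 1 (0.0501), estrus replicates 3, 4 or 5 (0.110, 0.0691 and 0.0515), metestrus replicates 5 or 7 (0.0598 and 0.0521) or diestrus replicate 3 (0.0515). The differences of metestrus from proestrus (0.77 ± 0.25, adjusted p = 0.0902) and of diestrus from metestrus (0.68 ± 0.23, adjusted p = 0.260) did not pass, although neither pair of stages overlapped.

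Bmp7 (ENSMUSG00000008999, chromosome 2, 172868012 to 172940321, minus strand) encodes a BMP that signals in epithelium and stroma of several organs. It measured 22.1, 10.7 and 13.1 CPM in proestrus replicates 1, 2 and 3, and 6.76, 17.6 and 15.9 CPM in estrus replicates 3, 4 and 5. It measured 23.2, 21.3 and 25.4 CPM in metestrus replicates 5, 6 and 7, and 30.2, 29.0 and 64.1 CPM in diestrus replicates 3, 4 and 5. Diestrus was above all other samples, and diestrus replicate 5 held about as many counts (114) as the other 2 diestrus uteri together (61 and 59). The log2 fold change of diestrus over estrus was 1.58 ± 0.37 (SE; edgeR, adjusted p = 0.00818, higher in 3 of 3), and that of proestrus over diestrus was -1.42 ± 0.37 (adjusted p = 0.0281, lower in 3 of 3).

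Part of the Bmp7 result rested on that uterus. Without diestrus replicate 5 the diestrus mean went from 41.1 to 29.6 CPM and the F test was no longer passed (edgeR adjusted p of 0.0811 against 0.0175 with all samples). The difference between proestrus and diestrus was lost without that replicate (log2 fold change -0.95, adjusted p = 0.143), without proestrus replicate 2 (0.128) or 3 (0.110), and with counts rebuilt from TPM (0.0572). Diestrus over estrus was called whichever of the 12 libraries was left out (highest adjusted p 0.0434). Gdf10 and Bmp7 had a Pearson correlation of 0.90 on the log2 CPM scale over the 12 samples, which share libraries and stages, and Inhbb had -0.77 with Gdf10 and -0.74 with Bmp7. The 6 gland markers, 3 of them tested and none at 0 in all libraries, summed to 9.63 to 27.3 CPM in proestrus and estrus. They summed to 884 CPM in metestrus replicate 7 and to 36.6 to 137 CPM in the other metestrus and diestrus uteri. Most of the 884 CPM came from Spink1, Prss29 and Prss28 (475, 295 and 76.9 CPM). Foxa2, also of that list, had 4.73 to 7.21 CPM in metestrus and 7.87 to 14.7 CPM in diestrus. The epithelial sums ran the other way, from 1462 to 2235 CPM in proestrus and estrus to 663 to 1173 CPM later. Their marker Cldn3, however, reached its highest level in diestrus (184 CPM). The part of either list in the Gdf10 and Bmp7 results was not tested.

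To show the sequence before the genes that moved in opposite directions, the 250 bases upstream of the start of Inhbb and Gdf10 are given 5′ to 3′ on the gene's strand, from RefSeq on GRCm38.p6. Capitals mark matches to GGGCGG, the GC box bound by SP factors, on either strand. The windows are chr1:119422249-119422498 (minus strand) for Inhbb and chr14:33923337-33923586 (plus strand) for Gdf10.
Inhbb: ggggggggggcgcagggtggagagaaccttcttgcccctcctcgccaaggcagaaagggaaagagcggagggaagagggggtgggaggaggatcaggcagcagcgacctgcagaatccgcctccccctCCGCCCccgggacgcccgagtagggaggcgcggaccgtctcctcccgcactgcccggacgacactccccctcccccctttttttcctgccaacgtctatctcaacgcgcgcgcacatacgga
Gdf10: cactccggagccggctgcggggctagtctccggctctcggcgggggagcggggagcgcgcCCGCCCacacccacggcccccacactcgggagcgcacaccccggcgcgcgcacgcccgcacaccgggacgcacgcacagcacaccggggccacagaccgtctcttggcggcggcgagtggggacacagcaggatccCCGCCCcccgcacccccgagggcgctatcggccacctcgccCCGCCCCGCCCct
The Inhbb window had a GC content of 68% and 1 GC box, and the Gdf10 window had 78.8% and 4 GC boxes. A GC box was present in 32.7% of the 32851 promoter windows of that length. Neither window held GGTCA, 1 arm of the estrogen response element, which 35.2% of windows held, or the full GGTCANNNTGACC (0.0639% of windows). Neither held TGTTCT, bound by the progesterone receptor (16.1%), or GTCTAGAC, bound by SMADs (0.167%), on either strand. Of the 7 genes with an entry, GGTCA was found in the windows of Tgfb1 and Inhba, 1 match each. Tgfb3, Bmp2 and Bmp7 had no entry.

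**Figure D2:**
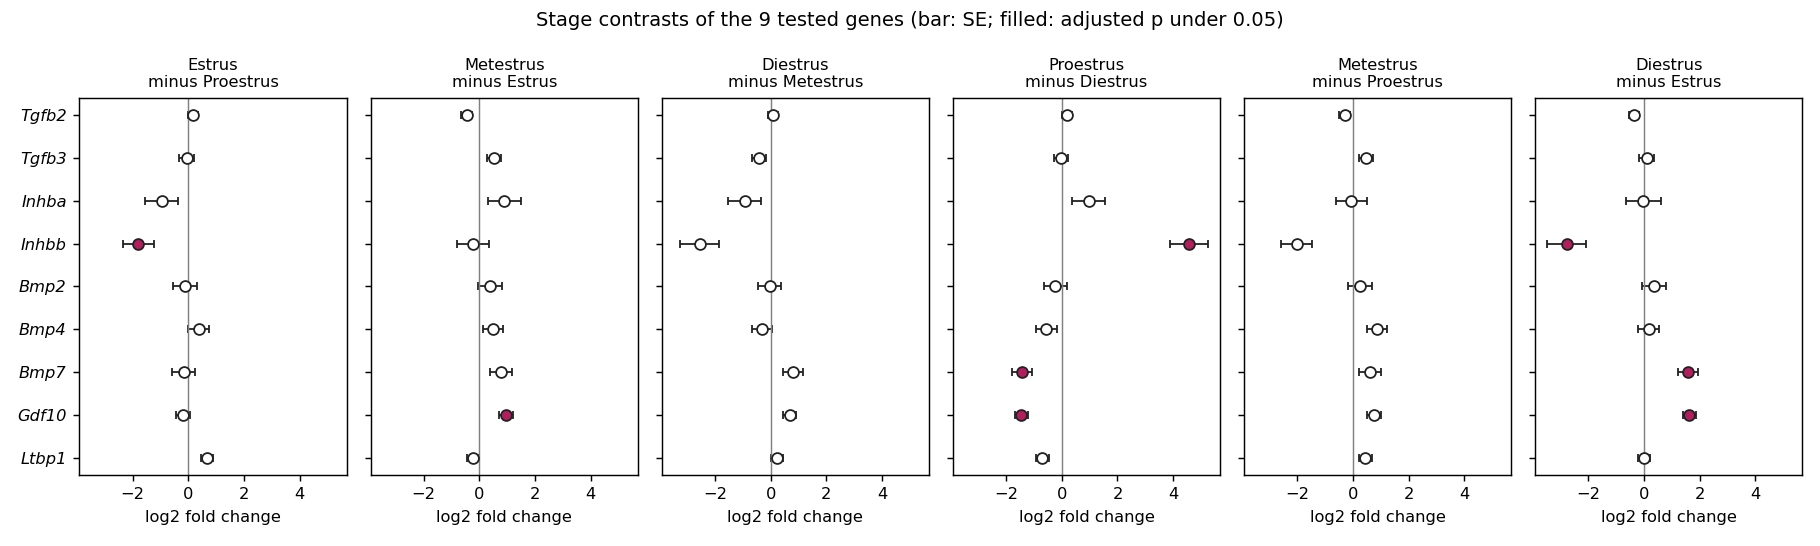
Log2 fold changes (points) with SE (bars) of the 9 tested genes in the 6 stage contrasts, each panel giving the named stage minus the other, with filled points for an adjusted p under 0.05. Inhbb reaches 4.57 for proestrus minus diestrus, and Gdf10 and Bmp7 lie on the other side of 0 there at -1.45 and -1.42.

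Counted by contrast, the 9 tested genes were called 3 times for diestrus against estrus (2 higher and 1 lower in diestrus), where 22.8% of all tested genes were called (9.73% higher and 13% lower), and 3 times for proestrus against diestrus (1 higher and 2 lower in proestrus), where 8.53% were called (4.62% higher and 3.91% lower). From proestrus to estrus 1 of 9 was called (lower in estrus), against 17.1% of all genes (9.67% higher and 7.46% lower). From estrus to metestrus 1 of 9 was called (higher in metestrus), against 7.56% (2.83% higher and 4.73% lower). For metestrus against proestrus edgeR called 0 of 9, against 4.31% of all genes (2.49% higher and 1.82% lower in metestrus). There DESeq2 called 0 and limma-voom 1. For diestrus against metestrus edgeR called 0 of 9, against 0.224% of all genes (0.133% higher and 0.0913% lower in diestrus). Both other tools called 0 here as well. The contrasts share samples, so their counts are not independent. A level higher or lower in 3 of 3 means no overlap with the other stage, as the labels gave no pairing. No overlap was found for 3 of 9 in diestrus against estrus (42.9% of all tested genes) and 4 of 9 in proestrus against diestrus (30.7%). It was found for 2 of 9 in estrus against proestrus (39%), 3 in metestrus against estrus (25.4%) and 3 in diestrus against metestrus (14.1%). The median log2 fold change of the 9 genes lay between -0.23 (proestrus against diestrus) and 0.49 (metestrus against estrus), and that of all tested genes within 0.02 of 0.

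The TGF-beta ligand genes gave no call. Tgfb2 (ENSMUSG00000039239, chromosome 1, 186622792 to 186705989) had 48.5 ± 7.94 CPM in proestrus, 54.3 ± 11.5 in estrus, 39.4 ± 4.79 in metestrus and 42.0 ± 4.84 in diestrus (SD, n = 3; edgeR stage F test, adjusted p = 0.218). Every pair of neighbours in the order of its levels overlapped, and its largest contrast, metestrus against estrus, was -0.46 ± 0.19 (SE, adjusted p = 0.15), with all 3 metestrus uteri below the estrus uteri. Tgfb3 (ENSMUSG00000021253, chromosome 12, 86056745 to 86079041) ran from 16.8 ± 4.98 CPM in estrus to 24.2 ± 4.32 in metestrus, with 17.7 ± 3.81 in proestrus and 18.1 ± 2.27 in diestrus (adjusted p = 0.333). Of the exonic bases of Tgfb3, 4.82% and 7.60% overlap 2 non-coding genes on the opposite strand, and the use of strand in counting was not given in the sources used here.

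Tgfb1 (ENSMUSG00000002603, chromosome 7, 25687002 to 25705077) had 65 counts over all 12 libraries, between 1 and 13 in a library, and did not pass the filter. Of its estimated counts 77.4% were assigned to a transcript annotated as a retained intron, and 21.7% to the full-length coding transcript. Its level was 7.36 CPM in proestrus replicate 1 and at most 4.39 CPM in any other uterus, near the floor of 3 counts. With no filter on low counts it was tested with the other 9 genes and gave no call in the F test or in any contrast, so no difference between stages was detectable at this depth.

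Tgfb2 held most of the counts of the 3 TGF-beta genes in each uterus. Its share ran from 56.9% (95% Wilson interval 48.8% to 64.7%) in metestrus replicate 5 to 76.7% (67.7% to 83.8%) in estrus replicate 3. In deposited TPM, which divide by length, it was 45.5% to 67.5%. The share was between 68.2% and 76.7% in estrus and between 56.9% and 61.7% in metestrus, which did not overlap, and those intervals did overlap between single samples of the stages.

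Inhba (ENSMUSG00000041324, chromosome 13, 16011851 to 16031621), the activin beta A subunit, varied within stages as much as between them. It measured 21.5, 11.8 and 9.57 CPM in proestrus, 3.68, 11.4 and 6.82 in estrus, 23.2, 14.4 and 2.96 in metestrus and 9.90, 3.93 and 7.87 in diestrus, each in the order of the replicate numbers. All pairs of stages overlapped and the stage F test was not passed (edgeR, adjusted p = 0.362). The SE of its contrasts was 0.55 to 0.63 on the log2 scale, so that a difference such as 0.97 ± 0.59 for proestrus over diestrus was within the error (adjusted p = 0.370). With Inhbb falling, the share of Inhbb in the counts of both beta subunits went from 93%, 95% and 96% in proestrus to 69.7%, 60% and 17.6% in diestrus. Those last shares rested on 66, 20 and 17 counts, with Wilson intervals of 57.8% to 79.4%, 38.7% to 78.1% and 6.19% to 41.0%.

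**Figure D3:**
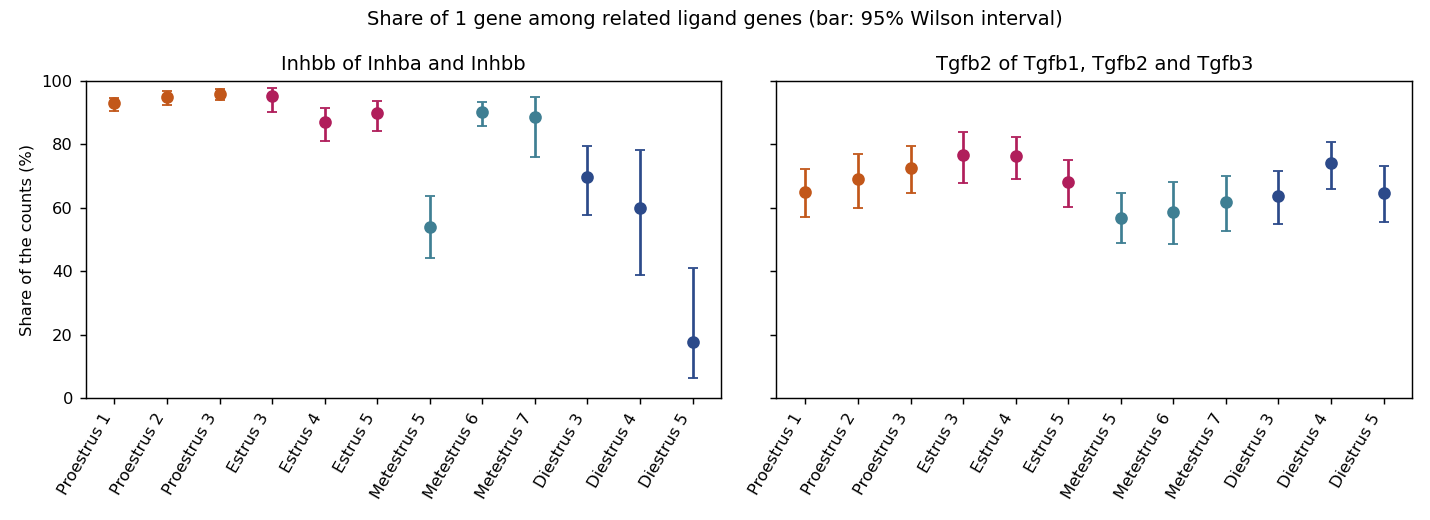
Share in percent of Inhbb in the counts of Inhba and Inhbb (left) and of Tgfb2 in the counts of Tgfb1, Tgfb2 and Tgfb3 (right) in each of the 12 uteri, with 95% Wilson intervals as bars. The Inhbb share is between 93% and 96% in proestrus and between 17.6% and 69.7% in diestrus, and metestrus replicate 5 stands at 54.1%.

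The BMP genes other than Bmp7 gave no call. Bmp2 (ENSMUSG00000027358, chromosome 2, 133552159 to 133562885), which is required for decidualization of the mouse uterus, lay between 4.54 and 12.5 CPM in every sample, and its stages overlapped throughout (edgeR stage F test, adjusted p = 0.832). Bmp4 (ENSMUSG00000021835, chromosome 14, 46383520 to 46390669) rested on 433 counts. It had 13.9 ± 8.12 CPM in proestrus, 18.2 ± 3.49 in estrus, 25.5 ± 4.31 in metestrus and 20.5 ± 5.94 in diestrus (SD, n = 3, adjusted p = 0.315). Proestrus replicate 2 was lowest at 4.82 CPM, and the 3 metestrus uteri (20.7 to 29.0 CPM) were above the 3 proestrus uteri, a log2 difference of 0.87 ± 0.37 that did not pass (adjusted p = 0.198). No overlap in that contrast was found for 3 of the 9 genes and for 23.4% of all tested genes.

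Ltbp1 (ENSMUSG00000001870, chromosome 17, 75005568 to 75392512) encodes a carrier that tethers latent TGF-beta to matrix. It measured 60, 56.2 and 64.5 CPM in proestrus replicates 1, 2 and 3 and 89.0, 94.3 and 105 CPM in estrus replicates 3, 4 and 5. It measured 99.4, 92.1 and 55.0 CPM in metestrus replicates 5, 6 and 7 and 103, 69.7 and 119 CPM in diestrus replicates 3, 4 and 5. Proestrus was the narrow stage, below all estrus and diestrus samples, and metestrus replicate 7 was the lowest of all. The log2 difference of estrus over proestrus was 0.68 ± 0.22 with an adjusted p of 0.0501 (edgeR), just above the threshold, and that of proestrus over diestrus was -0.69 ± 0.22 (adjusted p = 0.0739).

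The Ltbp1 results changed side with small changes of the fit. The stage F test (edgeR adjusted p = 0.0934) was passed without metestrus replicate 7 (0.0268), without diestrus replicate 4 (0.0393) or with no filter on low counts (0.0460). Proestrus over diestrus was called without the same replicates (0.0224 and 0.0316), with no filter (0.0273) and in the fit to its 2 stages (0.0288), and estrus over proestrus was called without metestrus replicate 5 (0.0363) or 7 (0.0193), without diestrus replicate 4 (0.0362) or 5 (0.0499), with DESeq2 (0.0473), with no filter (0.0344), with a mean of at least 50 counts (0.0403) and in the fit to its 2 stages (0.00321). Of its 1877 counts, 89.7% were assigned to the transcript Ltbp1-206, which is annotated as a retained intron and covers chromosome 17, 75384210 to 75392512. This transcript shares the last exons of the gene and ends 745 bases beyond the longest coding transcript, in the region that 3' end reads cover. Protein-coding transcripts held between 3.81% and 16.1% of the counts in a library, so the level of the coding forms taken alone was not resolved.

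Genes whose profile was closest to each called member were listed as a description, with Pearson's r of log2 CPM over the 12 samples among 5480 genes with a mean of at least 50 counts. For Inhbb they were Oxtr, the oxytocin receptor (r = 0.957), Akr1c14, a hydroxysteroid dehydrogenase (0.954), and Il4ra, an interleukin receptor chain (0.951). Oxtr went from a mean of 67.1 CPM in proestrus to 26.2, 21.8 and 8.08 CPM in the later stages. For Bmp7 they were Gdf10 (r = 0.896), Ap2a1, a clathrin adaptor subunit (0.869), and Twist2, a mesenchymal transcription factor (0.860). For Gdf10 they were Gstm7, a glutathione transferase (r = 0.911), Hdac2, a histone deacetylase (0.892), and Clcn5, a chloride transporter (0.885). Gstm7 had means of 5.75, 4.63, 34.5 and 134 CPM from proestrus through to diestrus.

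The other genes of the pathway were taken from 6 lists with 116 genes in all, of which 81 were tested and 34 passed the stage F test (34 of 81, against 23.2% of all tested genes). Of the 24 other ligands, only Bmp3 and Gdf11 passed the filter, and neither was called (edgeR adjusted p = 0.125 and 0.287). The inhibin alpha subunit Inha had 38 counts in all, in 11 of 12 libraries and at most 5.66 CPM. Of the 12 receptor genes tested, 2 were called, the endothelial coreceptor gene Eng and the activin type I receptor gene Acvr1b. The other 10 did not pass, among them Tgfbr1, Tgfbr2, Acvr2a, Bmpr1a and Bmpr2 with adjusted p-values from 0.314 to 0.850. For diestrus against estrus 3 of the 12 were called, 1 higher and 2 lower in diestrus (22.8% of all tested genes). The third was Acvr2b, chosen after its values were seen, at -1.11 ± 0.38 on the log2 scale (SE; edgeR, adjusted p = 0.0489, F test 0.117).

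Eng rose with Gdf10 and Bmp7, from 24.8 ± 3.55 CPM in estrus to 54.5 ± 4.91 in diestrus, and Acvr1b fell from 16.3 ± 4.78 to 7.68 ± 2.39 CPM (SD, n = 3; edgeR adjusted p = 0.00598 and 0.0267 for diestrus against estrus). The F test of Eng (adjusted p = 0.0194) was lost without estrus replicate 4 or 5 or diestrus replicate 3, with values up to 0.0727. For Acvr1b (0.0414) leaving out any library other than metestrus replicate 5 or diestrus replicate 3 ended the call (10 of 12, up to 0.149), as did DESeq2 (0.0516). Its difference between diestrus and estrus was lost without estrus replicate 5 or diestrus replicate 4 or 5, with values up to 0.144.

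Of the 15 extracellular inhibitor genes tested, 7 were called for diestrus against estrus, 4 higher and 3 lower in diestrus, in the contrast where 22.8% of all tested genes were called. Follistatin (Fst), which binds and neutralizes activins, had 6.23, 3.75 and 3.02 CPM in proestrus and 1.84, 1.14 and 2.73 CPM in estrus. It had 6.18, 11.9 and 84.0 CPM in metestrus replicates 5, 6 and 7 and 46.0, 91.8 and 11.8 CPM in diestrus replicates 3, 4 and 5. Fst was low in all proestrus and estrus uteri and uneven within metestrus and diestrus, and diestrus exceeded estrus by 4.63 ± 1.07 on the log2 scale (SE; edgeR, adjusted p = 0.00725, higher in 3 of 3). With limma-voom neither this difference (0.143) nor the F test of Fst (0.145, against 0.0102 with edgeR) passed. The 6 gland markers, 3 of them tested, summed to 884 CPM in metestrus replicate 7, most of it from Spink1, Prss29 and Prss28. Their sum was 36.6 to 137 CPM in the other metestrus and diestrus uteri, against 9.63 to 27.3 CPM in proestrus and estrus. The part of these markers in the Fst result was not tested.

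The BMP antagonist gene Nbl1 rose at another point of the cycle, from 90.3 ± 1.75 CPM in proestrus to 220 ± 17.9 in estrus, 1.28 ± 0.19 on the log2 scale (SE; edgeR, adjusted p = 0.00113, n = 3 each). The pseudoreceptor gene Bambi, which dampens TGF-beta and BMP signals, rose from 8.92 ± 1.34 CPM in estrus to 31.0 ± 10.8 in diestrus (adjusted p = 0.00237), and Fstl1 from 203 ± 22.0 to 393 ± 43.5 CPM (adjusted p = 0.00192). Dcn, whose proteoglycan product binds TGF-beta, fell from 3373 ± 299 to 1730 ± 299 CPM (adjusted p = 0.00129). The BMP antagonist gene Chrdl1 rose from 1 to 3 counts a library in proestrus to 10.3 ± 5.64 CPM in estrus (edgeR adjusted p = 0.00956), and its F test (0.0202) was lost without proestrus replicate 2 or 3 or estrus replicate 3 or 5, with values up to 0.0709, and with limma-voom both were lost (0.0581 and 0.120).

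Among 17 tested genes of latency and activation, 8 were called for diestrus against estrus, 3 higher and 5 lower in diestrus (22.8% of all tested genes). Pcsk5, a proprotein convertase, rose from 16.2 ± 5.30 CPM in estrus to 139 ± 20.6 in diestrus, 3.10 ± 0.41 on the log2 scale (SE; edgeR, adjusted p = 0.000233, higher in 3 of 3), while the related Pcsk6 fell from 7.0 ± 0.319 to 2.56 ± 0.355 CPM (0.0152). This call of Pcsk6 was lost without diestrus replicate 3 or 5 (0.0537 and 0.0557), with DESeq2 (0.0516) and with no filter (0.0597). The F test of Pcsk6 (edgeR adjusted p = 0.0296) was lost in 9 of 12 fits with 1 library left out (up to 0.104). It was also lost with DESeq2 (0.0815) and with no filter (0.0989). Among 6 integrin genes tested, whose products include receptors that free TGF-beta from its latent complex, Itgav, Itgb5, Itgb6 and Itgb8 passed the F test and had their highest mean in estrus, and Itgb1 and Itgb3 did not pass (0.154 and 0.0700). Itgb6 fell from 33.0 ± 4.48 CPM there to 5.04 ± 1.64 in diestrus (adjusted p = 0.000617), Itgav from 53.4 ± 12.9 to 23.9 ± 6.26 CPM (0.00214) and Itgb5 from 117 ± 5.56 to 53.9 ± 14.4 CPM (0.00176). Itgb8 rose from 7.94 ± 4.01 CPM in proestrus to 44.8 ± 6.82 in estrus (0.00196). The epithelial marker sums given above were also higher in estrus than in diestrus, and those of proestrus and estrus overlapped. The 7 macrophage markers, all tested, summed to 591 to 632 CPM in estrus and to 223 to 481 CPM in all other uteri. The 6 smooth muscle markers summed to 8170 to 10515 CPM in estrus and 5164 to 8708 CPM elsewhere. Of these, Myh11 and Tagln were higher in every estrus uterus than elsewhere. Acta2, Cnn1, Des and Actg2 overlapped with other stages. Acta2 stood at 2275 to 3111 CPM in estrus and at 2887 to 3805 CPM in proestrus. The part of these lists in the integrin results was not tested. The F test of Itgav (0.00717) was lost without estrus replicate 4 (0.0542).

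Of 14 tested SMAD genes and partners, 4 were called for diestrus against estrus, 2 in each direction, a share near the 22.8% of all tested genes. The SMAD genes themselves stayed below the threshold apart from Smad5, which had 54.9 ± 7.84 CPM in proestrus and 83.2 ± 11.8 in metestrus (edgeR adjusted p = 0.0464, F test 0.0446). The F test of Smad5 ended on leaving out any library but metestrus replicate 5 or diestrus replicate 4 (10 of 12, up to 0.135). It also ended with library totals (0.0679), DESeq2 (0.0505), no filter (0.0631), limma-voom (0.0524) and counts rebuilt from TPM (0.319). The contrast ended on leaving out any library but metestrus replicate 5 or 6 or diestrus replicate 4 (9 of 12, up to 0.178). It also ended with library totals (0.0689), limma-voom (0.0534), counts rebuilt from TPM (0.204) and the fit to its 2 stages (0.138). Tgif1 and Skil, which encode repressors of SMAD-driven transcription, were lower in diestrus than in estrus (Tgif1 16.2 ± 3.40 against 53.4 ± 8.27 CPM, adjusted p = 0.000221, and Skil 28.2 ± 6.23 against 59.9 ± 9.01 CPM, 0.00540). The related Tgif2 and Ski were higher in diestrus (Tgif2 25.5 ± 4.58 against 9.35 ± 2.94 CPM, 0.00280, and Ski 184 ± 11.5 against 120 ± 14.8 CPM, 0.00711). The F test of Ski (0.0241) ended without estrus replicate 4 or 5 or diestrus replicate 3 or 5, with values up to 0.0996.

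Genes known to respond to these ligands moved in both directions. Of the 21 tested, 13 passed the stage F test (23.2% of all tested genes), and 10 were called for diestrus against estrus, 5 higher and 5 lower in diestrus (22.8% of all). Id1, a target of BMP-activated SMADs, fell from 51.0 ± 11 CPM in proestrus to 18.0 ± 2.60 in estrus, -1.49 ± 0.19 on the log2 scale (SE; edgeR, adjusted p = 0.000447, lower in 3 of 3), and stood at 43.4 ± 5.57 in metestrus and 43.9 ± 2.23 CPM in diestrus. Tgfbi, a matrix protein gene induced by TGF-beta, rose from 43.0 ± 9.82 CPM in proestrus to 179 ± 68.3 in metestrus (adjusted p = 0.00379), and was 165 ± 38.4 CPM in diestrus. Msx1 rose from 51.7 ± 14.2 CPM in estrus to 291 ± 31.9 in diestrus (adjusted p = 0.000451). The cell cycle inhibitor genes Cdkn1a and Cdkn2b had their highest means in estrus, at 56.7 ± 10.4 and 10.8 ± 3.06 CPM, against 14.2 ± 2.36 and 0.492 ± 0.491 CPM in diestrus (4.44e-05 and 0.000905). In diestrus replicates 3, 4 and 5 Cdkn2b held 1, 2 and 0 counts, below the floor of 3 counts. For Cdkn2b the differences of estrus from proestrus (0.0441) and from metestrus (0.0406) were less firm. Leaving out any library but metestrus replicates 5, 6 or 7 or diestrus replicate 5 ended the former (8 of 12, up to 0.170), as did DESeq2 (0.0524), and leaving out any but metestrus replicate 5 or diestrus replicate 5 ended the latter (10 of 12, up to 0.152). The macrophage sums were likewise highest in estrus. There the smooth muscle sums overlapped only with proestrus replicate 3, with single markers differing as given above. The part of these sums in the Cdkn1a and Cdkn2b results was not tested. Most of these genes have other regulators as well, and the part of the ligands in their levels was not tested.

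**Figure D4:**
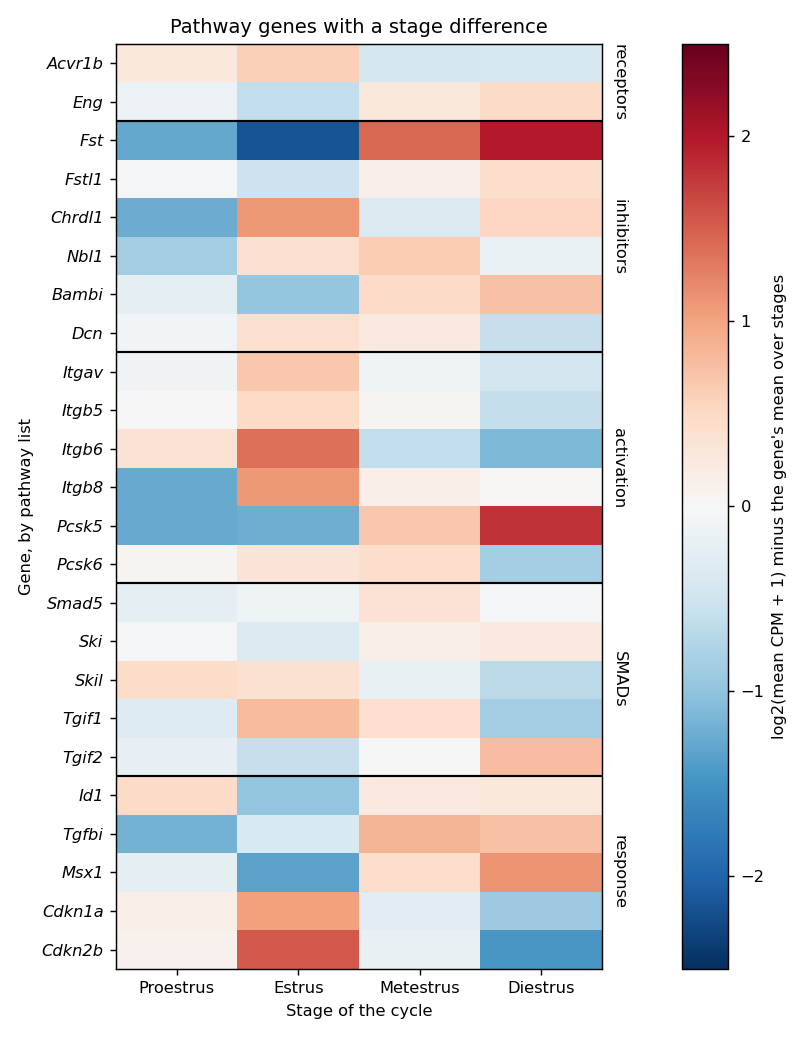
The 24 pathway genes shown (rows, by list, at most 6 a list) in the 4 stages (columns), coloured by log2(mean CPM + 1) minus the gene's mean over the stages. Fst, Pcsk5 and Msx1 are highest in diestrus (49.9, 139 and 291 CPM), and Itgb6, Cdkn1a and Cdkn2b are highest in estrus (33.0, 56.7 and 10.8 CPM).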

How the data were processed

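Uteri were profiled with 3' TagSeq, per the labels' protocols. The authors deposited 1 table per sample with estimated counts and TPM per transcript, per the file headers. The submitters' processing notes name FastQC, kallisto and DESeq2, and the transcript set, genome build and use of strand were not given in the sources used here. Of 119414 transcripts, 116640 (97.7%) matched GENCODE M21 (GRCm38) without their version, and the others held 0.619% to 0.774% of each library and were left out. Estimated counts were summed per gene, rounded and filtered with filterByExpr by stage, which left 12052 genes. TMM factors and a quasi-likelihood model with 1 coefficient per stage were fitted to all 12 samples in edgeR 4.0.16 (R 4.3.3), after a check on simulated data. Adjusted p-values are Benjamini-Hochberg over all tested genes, called under 0.05.

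Named genes were the 10 members, up to 6 called genes of each pathway list by F test p, and the 3 genes closest in profile to each called member. One gene that this rule names is not reported here. Members and lists were chosen with earlier results of these data known. Alternatives were library totals, DESeq2 1.42.0, limma-voom 3.58.1, other filters, counts rebuilt from TPM, fits to 2 stages, a replicate block and each library left out.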

Additional observations from a re-analysis of the deposited data

How the results depend on the processing

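The counts of ligand genes called were 3 for the stage F test (2 to 4 when 1 library was left out) and 3 for diestrus against estrus (3 in all 12 such fits). For proestrus against diestrus 3 were called (2 to 4). From proestrus to estrus 1 was called, with 0 to 2 when 1 library was left out, 2 with no filter on low counts, 2 with a mean of at least 50 counts, 2 in the fit to these stages alone and 0 with counts rebuilt from TPM. From estrus to metestrus 1 was called, with 0 to 1 when 1 library was left out and 0 with library totals, with counts rebuilt from TPM and in the fit to these stages alone. Diestrus against metestrus gave 0, and 1 with no filter. Metestrus against proestrus gave 0, with 0 to 1 when 1 library was left out, 2 with no filter and 1 with limma-voom. The pathway genes called in the F test were 34, 25 to 42 when 1 library was left out, 20 with a mean of at least 50 counts, which tests fewer genes, and 22 with counts rebuilt from TPM. Where no construction is named the cause was not tested. Estrus and diestrus share the numbers 3, 4 and 5 in their titles, and same-numbered libraries did not deviate together over 12052 genes (correlations -0.04, 0.01 and -0.02). With these numbers as a replicate block 3 ligand genes were called, as without it, and 2928 genes in all against 3243 in the same fit without the block. No call of a ligand or named pathway gene changed direction under any alternative. Tgfb1 and Inha, with 65 and 38 counts over all libraries, were limited by depth.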
